A study of Oryza sativa with 6 samples.

Results

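The miR529 and miR535 families were described across 6 small RNA libraries from rice leaves. Members were all entries of the deposited table that carry the number of either family in their name, with any species prefix and from either arm. This gave 6 of 479 miRNA names, 3 of miR529 and 3 of miR535. The 4 main names were osa-miR529b, osa-MIR529b-p3, osa-miR535-5p and osa-miR535-3p, and the other names were osa-MIR529a-p5 and mdm-miR535a_1ss21CT. A name ending in p5 or p3 is a sequence from that arm that is not itself a listed mature miRNA, and ss marks a substituted base.

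All libraries came from CA21, a glyphosate-tolerant rice without a transgene, bred from mutagenised Zhejing30 (gamma rays and EMS) by crossing and backcrossing with a sensitive rice. GLY denotes leaves of CA21 seedlings sprayed at the third-leaf stage with 2 mg per ml of glyphosate, a herbicide that blocks the shikimate pathway, and CK denotes leaves of unsprayed CA21. Each group had 3 libraries, and the labels do not say whether they came from separate plants, so the spread behind every p-value is that of these libraries alone. The comparison asks which miRNAs differ in the leaves of a tolerant rice after the spray, and as CA21 is 1 germplasm it says nothing of other rice.

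In plants, a miRNA is cut from a hairpin as a duplex of a 5p and a 3p strand, and the strand kept in an Argonaute protein guides the cleavage of transcripts with a matching site. The 5p strands of miR156, miR529 and miR535 are similar in sequence and are known to target SPL genes, transcription factors that act in phase change, tillering and panicle branching. miR156 is the abundant family in young leaves, while miR529 is known mainly from the panicle. The opposite strands (3p) are not known to share these targets.

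The 6 sequences are shown because both single-base differences and the seeds bear on how the names can be told apart. Each is written 5′ to 3′ as in the deposited table, with bases 2 to 8, the seed, in capitals, and the most abundant miR156 name follows for comparison.
osa-miR529b: aGAAGAGAgagagtacagctt
osa-MIR529a-p5: aGAAGAGAgagagtacagcct
osa-MIR529b-p3: gCTGTACGctccctcttcttc
osa-miR535-5p: tGACAACGagagagagcacgc
mdm-miR535a_1ss21CT: tGACAACGagagagagcacgt
osa-miR535-3p: gTGCTTTCtcccgttgtcact
osa-miR156a_L+1: tTGACAGAagagagtgagcac

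All 6 members were 21 nt long, and their seeds fell into 4 groups. osa-miR529b and osa-MIR529a-p5 shared a seed and their first 19 bases, and differed by T20C, counted from the 5′ end with the base of osa-miR529b first. osa-miR535-5p and mdm-miR535a_1ss21CT shared a seed and their first 20 bases, and differed by C21T. Each opposite-arm name had a seed found in no other sequence of the table. osa-miR156a, which is osa-miR156a_L+1 without its first base, shared the 9-base run agaagagag with osa-miR529b and its first 5 bases, tgaca, with osa-miR535-5p. The longest run shared by osa-miR529b and osa-miR535-5p was gagagagag, also 9 bases.

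Laid against each other with 2-base 3′ overhangs, osa-miR529b and osa-MIR529b-p3 had 17 Watson-Crick pairs among 19 facing bases, with positions 8 and 12 of osa-miR529b unpaired. The same count held for osa-MIR529a-p5 against osa-MIR529b-p3. osa-miR535-5p and osa-miR535-3p had 17 Watson-Crick pairs and 1 G:U pair, with position 9 of osa-miR535-5p unpaired. Both single-base differences lay outside the 19 facing bases.

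The values are the authors' normalized counts, of unstated scaling. Estimated miRNA reads per library ranged from 97902 in GLY 3 to 304753 in CK 3. In the authors' read summary, every GLY library had fewer valid reads than every CK library. Every GLY library also lost a larger share of its raw reads to the adaptor and length filter. GLY 2 stood apart from GLY 1 and GLY 3. Its log2 values correlated at 0.640 with GLY 1 and 0.557 with GLY 3, against 0.928 between GLY 1 and GLY 3 and 0.939 to 0.972 between CK libraries. Names of 24 nt held 35.4% of its summed value and 6.99% to 15.2% in the other 5 libraries. Names of 21 nt, the length of all members, held 39.1% and 62.1% to 78.4%. Names of 18 or 19 nt held 1.12% to 1.19% in CK, and 1.64%, 0.455% and 2.63% across GLY 1 to GLY 3. In that share GLY 1 and GLY 3 also lay outside the CK libraries. The 6 names of miR2118 and miR2275, known from panicle and anther, summed to 99.5 to 140 in CK and 46.3 to 585 in GLY. Most of this sum was a 19-nt p5 name of miR2118, at 77.8 to 120 in CK and 46.3 to 549 in GLY. The osa-miR2118 names of 22 nt went the other way, from 4.82 to 10.1 in CK to 0 in every GLY library. The remaining names, of other species prefixes, were above 0 only in GLY 3, at 25.8 and 10.3. miR172, known from the adult phase, summed to 666 to 848 over its 4 names in CK and 315 to 524 in GLY, so that the groups did not overlap. The family was not called (limma adjusted p = 0.151). Counted per miRNA, all GLY lay below all CK for 21.9% of the tested names, and the share of families was not computed. A lesser miR172 name overlapped, at 21.1 to 44.7 in CK and 10.3 to 61.25 in GLY. The part of these differences in the results on miR529 and miR535 was not tested. In leaf tissue, fewer cells of a type and less RNA per cell cannot be told apart.

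osa-miR535-5p, the SPL-targeting strand of miR535, was the most abundant member in every library. Its normalized values were 628, 860 and 982 across CK 1 to CK 3, and 6651, 1918 and 5943 across GLY 1 to GLY 3. Every GLY library lay above every CK library, and GLY 2 was the lowest of the GLY libraries. The mean was 823 ± 180 (SD, n = 3) in CK and 4837 ± 2553 (SD, n = 3) in GLY, a 5.88-fold ratio of means. On the log2(value + 1) scale the difference was 2.39 ± 0.53 (SE), which passed the threshold (limma adjusted p = 0.0398). Its place among all names by value went from 31, 26 and 25 in CK to 10, 18 and 10 in GLY.

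osa-miR535-3p, the opposite strand of the same hairpin, was the next most abundant member. Its normalized values were 86.3, 154 and 213 across CK 1 to CK 3, and 409, 388 and 401 across GLY 1 to GLY 3. The groups did not overlap, and the GLY values lay close together while the CK values spread. The difference was 1.49 ± 0.40 (SE) on the log2 scale and did not pass the threshold (limma adjusted p = 0.0714). It passed under median of ratios size factors (adjusted p = 0.0387) and without GLY 2 (adjusted p = 0.0248).

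osa-miR529b, the SPL-targeting strand of MIR529b, was low in unsprayed leaves. Its normalized values were 13.2, 18.4 and 13.0 across CK 1 to CK 3, and 179, 88.1 and 150 across GLY 1 to GLY 3. The groups did not overlap, and GLY 2 was again the lowest GLY library. The mean was 14.9 ± 3.07 (SD, n = 3) in CK and 139 ± 46.2 (SD, n = 3) in GLY, a 9.34-fold ratio of means. The difference was 3.10 ± 0.45 (SE) on the log2 scale and passed the threshold (limma adjusted p = 0.0129).

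osa-MIR529b-p3, the opposite strand of the same hairpin, was listed at 0 in all 3 CK libraries, whereas GLY 1 to GLY 3 held 13.2, 22.4 and 31.0. A listed 0 may hide a few reads, so no fold is given. It was called higher (limma adjusted p = 0.0145), but it passed the filter on low values only through the 3 GLY libraries. Its GLY values therefore had to lie above its CK values. Its GLY values rest on 15, 15 and 18 estimated reads.

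osa-MIR529a-p5, the 5p strand of the sister hairpin, did not pass the test. Its normalized values were 61.7, 102 and 87.0 across CK 1 to CK 3, and 233, 43.3 and 82.6 across GLY 1 to GLY 3. The groups overlapped, with GLY 1 the highest and GLY 2 the lowest of the 6 libraries. The difference was 0.20 ± 0.66 (SE) on the log2 scale (limma adjusted p = 0.866), and without GLY 1 its sign turned to -0.44.

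mdm-miR535a_1ss21CT was listed at 0 in all CK libraries and in GLY 2, while GLY 1 held 17.6 and GLY 3 held 10.3. The filter asked for 3 libraries at 10 or above, so this name was not tested.

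**Figure D1:**
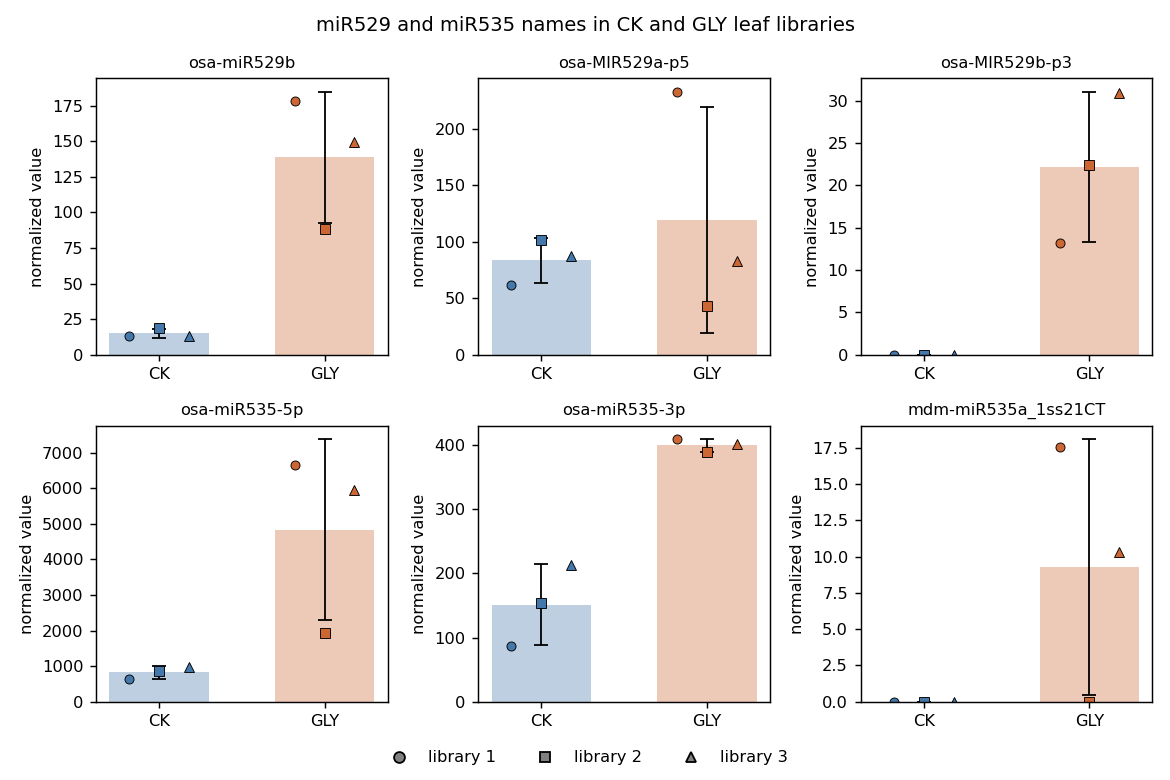
Normalized value of each miR529 and miR535 name (y axis, linear, from 0, with its own range per panel) in CK and GLY. Points are the 3 libraries of a group, bars their mean and error bars the SD; for osa-miR535-5p the GLY points lie between 1918 and 6651, above all CK points, whereas the osa-MIR529a-p5 points of the groups overlap.

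Of the 6 members, 5 were tested among 251 miRNAs. Leaving aside osa-MIR529b-p3, which passed the filter only through its GLY values, 2 of 4 were called higher (osa-miR529b and osa-miR535-5p) and none lower. Over all 251 miRNAs, 7.57% were called higher, 3.59% lower and 11.2% in either direction. All GLY libraries lay above all CK libraries for 3 of these 4, and for 13.9% of the tested miRNAs, while all GLY lay below all CK for none of the 4 and 21.9% of the tested miRNAs. The median log2 difference was 1.94 over the 4 and -0.46 over the 251 miRNAs. By size of the log2 difference osa-miR529b was 10th, osa-miR535-5p 18th and osa-miR535-3p 30th of the 251.

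The calls did not hold up to leaving out single libraries. With the filter reapplied to the remaining 5 libraries, none of the members was called without CK 1, CK 2, CK 3, GLY 1 or GLY 3, and osa-MIR529b-p3 was not tested without any GLY library. The adjusted p of osa-miR529b was then 0.0539 to 0.0677, and that of osa-miR535-5p 0.119 to 0.146. Without GLY 2, osa-miR529b, osa-miR535-5p and osa-miR535-3p were called. In all, 113 of 234 tested miRNAs were called there, against 28 of 251 with every library. The balance of calls then turned, from 19 higher and 9 lower to 33 higher and 80 lower. With the 251 tested miRNAs kept the same, a version chosen after the first was seen, osa-miR529b was also called without GLY 1 (adjusted p = 0.0498). osa-MIR529b-p3, which is in that set only through its GLY values, is not read there. The log2 differences of osa-miR529b stayed between 2.89 and 3.39 and those of osa-miR535-5p between 2.06 and 2.96 in all of these fits. The scaling also mattered for osa-miR535-5p, which was called in 2 of 4 other scalings, whereas osa-miR529b was called in 4 of 4.

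**Figure D2:**
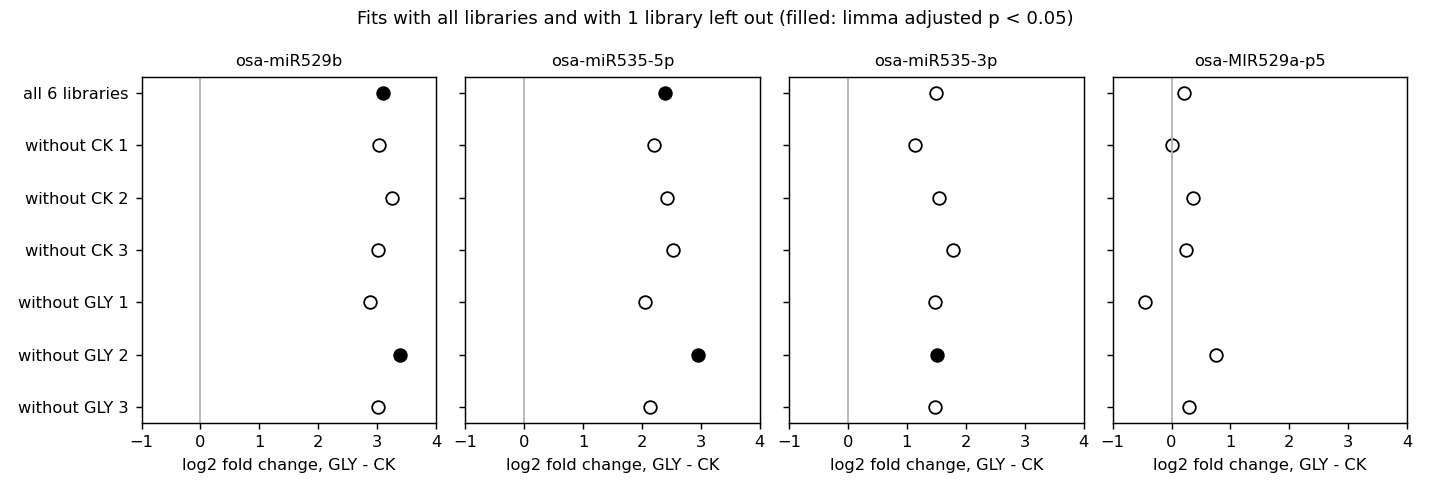
Log2 difference between GLY and CK (x axis) for 4 tested names, fitted with all 6 libraries and with each library left out in turn and the filter reapplied (y axis). Filled points passed the limma threshold; osa-miR529b and osa-miR535-5p passed with all libraries and without GLY 2, while the osa-MIR529a-p5 estimate lies at -0.44 without GLY 1.

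Summed by family over arms and variants, miR535 was called higher and miR529 was not. The summed miR535 values were 715, 1014 and 1195 across CK 1 to CK 3, and 7077, 2307 and 6354 across GLY 1 to GLY 3. Every GLY sum lay above every CK sum, as for 14.4% of the 90 tested families, and 7.78% of families were called higher and 8.89% in either direction. The miR535 difference was 2.30 ± 0.50 (SE) on the log2 scale (limma adjusted p = 0.0492), just inside the threshold, and it was called in none of the 4 other scalings (adjusted p from 0.0615 to 0.144). It also lost its call without CK 1, CK 2, CK 3, GLY 1 or GLY 3, with adjusted p from 0.119 to 0.177 over both versions, and kept it only without GLY 2. The summed miR529 values were 74.9, 120 and 100.0 in CK, and 425, 154 and 263 in GLY, with a difference of 1.41 ± 0.49 (SE) and a limma adjusted p of 0.155. Every GLY sum lay above every CK sum there too, although the groups overlapped for osa-MIR529a-p5, the larger part of the sum in CK.

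The ratio of values within a library does not depend on how libraries were scaled. The log2 differences and tests below were computed after adding 1 to each value, which does depend on it for low names. With nothing added, the differences were 2.98, 0.89, 0.81 and 0.79 in the order given below, with the same exact permutation p-values. A group of 3 against 3 allows no two-sided exact permutation p below 0.1, so none of the 4 ratios tested could pass 0.05. The 4 p-values were adjusted together, and the ratio of osa-miR529b to osa-MIR529a-p5 was added after the values were seen.

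The ratio of osa-miR529b to osa-MIR529a-p5, the single-base pair, was 0.214, 0.181 and 0.149 across CK 1 to CK 3, and 0.766, 2.03 and 1.81 across GLY 1 to GLY 3. All GLY libraries lay above all CK libraries, and osa-miR529b went from the lesser to the greater of the pair in GLY 2 and GLY 3. The log2 difference was 2.89 (two-sided exact permutation p = 0.1, adjusted p = 0.133). In reads, osa-miR529b made up 17.6% (15 of 85), 15.3% (21 of 137, Wilson 95% interval 10.2% to 22.3%) and 13.0% (24 of 185) of the pair across CK 1 to CK 3. From GLY 1 to GLY 3 it made up 43.4% (203 of 468, Wilson 95% interval 39.0% to 47.9%), 67.0% (59 of 88) and 64.4% (87 of 135). Reads were estimated by dividing each value by the worth of 1 read in its library, a step inferred from the values under 60. All 29 member values above 0 came out within 0.01 of a whole number. This is no separate check of the step, as low member values were among those used to infer it. The intervals cover counting error only, and these shares too were computed after the values were seen.

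The ratio of osa-miR535-5p to osa-miR535-3p, the strands of 1 duplex, was 7.28, 5.57 and 4.61 in CK, and 16.3, 4.94 and 14.8 across GLY 1 to GLY 3. GLY 1 and GLY 3 lay above all CK libraries and GLY 2 lay among them. The log2 difference was 0.90 (two-sided exact permutation p = 0.3, adjusted p = 0.3), and it was 0.59 without GLY 1 and 1.45 without GLY 2. The 3p strand was 12.1%, 15.2% and 17.8% of the reads of both strands in CK, and 5.79%, 16.8% and 6.32% across GLY 1 to GLY 3. For MIR529b, where the 3p strand was listed at 0 in CK, the ratio of osa-miR529b to osa-MIR529b-p3 could be formed only in GLY, at 13.5, 3.93 and 4.83, and was not tested.

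The ratio of osa-miR535-5p to osa-miR156a_L+1, the most abundant SPL-targeting name, was 0.287, 0.337 and 0.325 in CK, and 0.666, 0.442 and 0.581 in GLY, with no overlap (log2 difference 0.81, two-sided exact permutation p = 0.1, adjusted p = 0.133). The ratio of osa-miR529b to osa-miR535-5p was 0.0210, 0.0214 and 0.0132 in CK, and 0.0268, 0.0460 and 0.0252 in GLY. These groups did not overlap either (log2 difference 0.71, two-sided exact permutation p = 0.1, adjusted p = 0.133), though osa-miR529b stayed far below osa-miR535-5p in every library. This difference was 0.44 without GLY 2 and 0.43 with 5 added to each value.

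**Figure D3:**
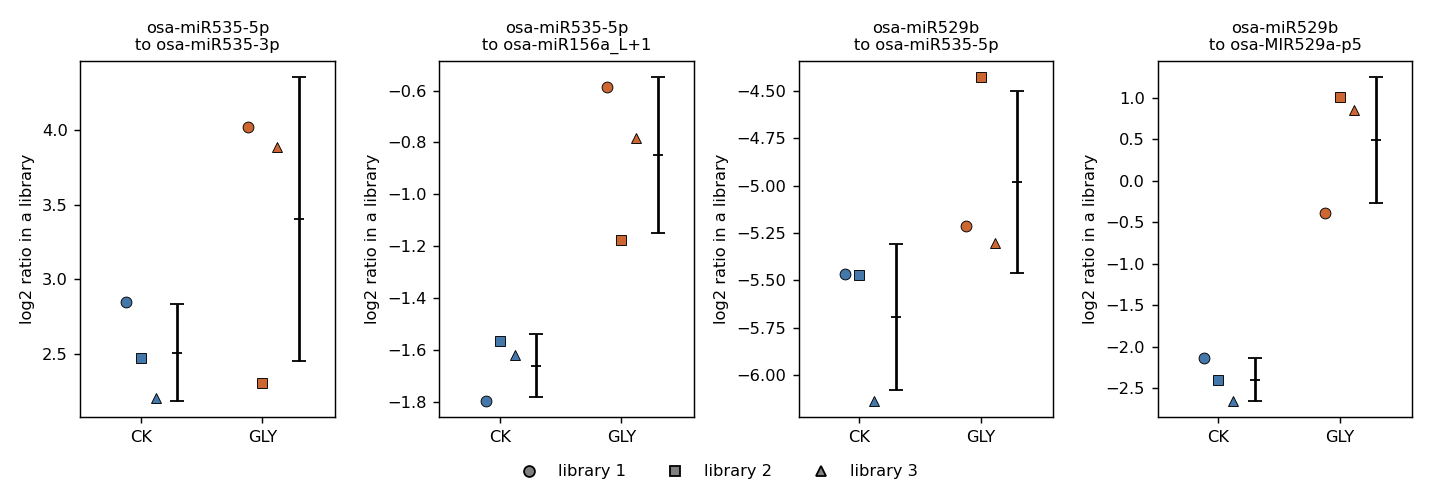
Log2 ratio of one name to another within each library (y axis, own range per panel) in CK and GLY. Points are libraries, and the bars beside them give the group mean and SD of 3; in the panel of osa-miR535-5p to osa-miR535-3p GLY 2 lies among the CK libraries, and in the other panels the groups do not overlap.

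Among the 5p strands of miR156, miR529 and miR535, miR535 held 18.9% to 21.5% of the summed value in CK, and 35.2%, 27.0% and 31.6% across GLY 1 to GLY 3. miR529 held 2.25%, 3.0% and 2.14% in CK, and 2.17%, 1.85% and 1.23% in GLY, which overlapped. miR156 held the rest, 75.5% to 78.9% in CK and 62.6% to 71.2% in GLY. The 5p strands of the 3 families made up 2.45%, 2.70% and 2.84% of all miRNA value in CK, and 12.2%, 4.01% and 11.2% across GLY 1 to GLY 3. GLY 2 was nearest to the CK libraries in this share and in that of miR535.

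**Figure D4:**
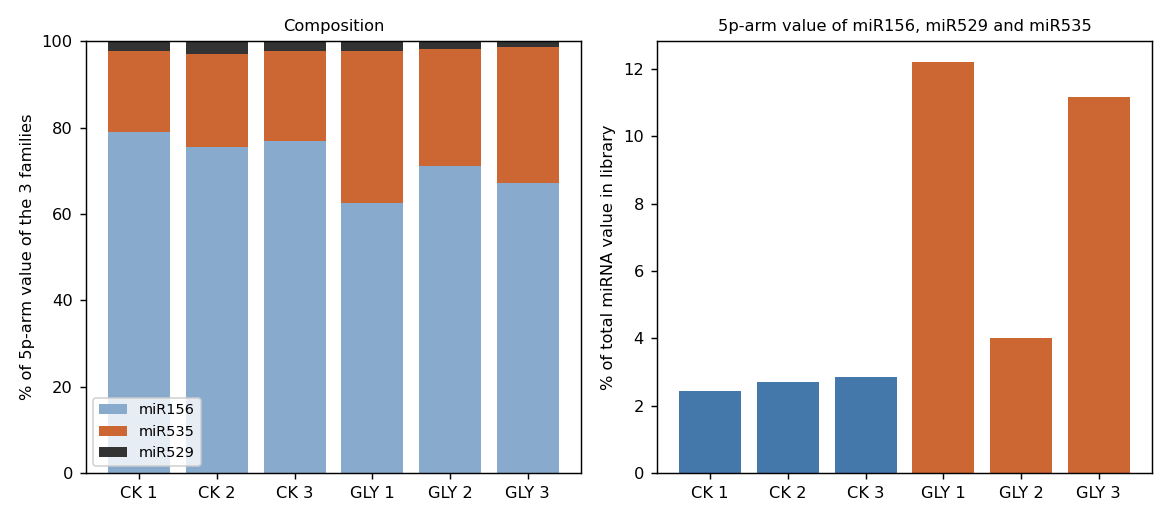
Left, the composition of the summed 5p-strand value of miR156, miR529 and miR535 in each library (y axis, percent). Right, that summed value as a percentage of all miRNA value in the library; bars are single libraries, and GLY 1 and GLY 3 reach 12.2% and 11.2% against at most 2.84% in CK.

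Of the 17 tested names of the 3 families, 16 were left without osa-MIR529b-p3. Of these, 3 were called higher and none lower, against 7.57% and 3.59% of all tested miRNAs, with a median log2 difference of 0.95. A pair of miR156 names on the 5p strand held the same values in every library, and both were counted. With each sequence once and osa-MIR529b-p3 included, the median was 0.95, against 1.13 over all 17 names. Of the 10 names on the 5p strand 2 were called higher, and of the other 6 on the opposite strand 1. Without GLY 2 and with the filter reapplied, 8 names of the 3 families were called higher and 2 lower. In that fit 33 of all 234 tested miRNAs were called higher and 80 lower. With every library, the 12 miR156 names had a median of 0.72 and 1 call, a share near that of all tested miRNAs. The call was osa-miR156f-3p, an opposite strand that went from 24.2, 46.5 and 48.9 in CK to 157, 251 and 243 in GLY (limma adjusted p = 0.0145). osa-miR156a_L+1 had values of 2187, 2549 and 3023 in CK, and 9990, 4336 and 10221 in GLY. Its groups did not overlap and its difference of 1.57 ± 0.40 (SE) was not called (limma adjusted p = 0.0611). The other abundant miR156 names were not called either, with differences of 1.62 for osa-miR156a, 0.77 for ata-miR156d-3p_1ss21GC and -0.73 for osa-miR156c-3p.

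In order of mean level in CK, osa-miR535-5p came first, then osa-miR535-3p (151), osa-MIR529a-p5 (83.5) and osa-miR529b (14.9). The values of osa-miR535-3p and osa-MIR529a-p5 overlapped in CK. In GLY the order was osa-miR535-5p, osa-miR535-3p (399), osa-miR529b (139), osa-MIR529a-p5 (120), osa-MIR529b-p3 (22.2) and mdm-miR535a_1ss21CT (9.30). There osa-miR529b and osa-MIR529a-p5 overlapped, as did osa-MIR529b-p3 and mdm-miR535a_1ss21CT.

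Across the 6 libraries, osa-miR529b and osa-miR535-5p correlated at 0.955 on the log2 scale, and osa-miR529b and osa-MIR529a-p5 at 0.321. The tested miRNA most like osa-miR535-5p was osa-miR156a_L+1 (r = 0.998), followed by osa-miR159f_R-1 (0.992) and osa-MIR159f-p5 (0.989). Those most like osa-miR529b were osa-MIR171g-p3 (0.993), osa-miR398a (0.993) and osa-miR528-5p (0.988), and those most like osa-MIR529b-p3 were osa-miR1432-5p_R+1 (0.971), osa-miR528-5p (0.968) and osa-miR156f-3p (0.966). For osa-miR535-3p they were osa-MIR2122-p5_1ss15CT (0.979), osa-miR156f-3p (0.954) and osa-MIR167f-p3 (0.952). osa-MIR529a-p5 had no match as close, the nearest being osa-miR167e-3p (0.814), osa-miR390-5p (0.795) and osa-MIR2866-p3 (0.774). These are descriptions over libraries of 2 groups, in which any miRNAs that differ between the groups correlate. osa-MIR529b-p3, osa-MIR171g-p3 and osa-miR398a were listed at 0 in every CK library, so their correlations rest largely on the step from 0 to GLY.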

How the data were processed

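The authors trimmed adaptors, dropped other RNA classes and reads under 18 nt, and matched the rest to miRBase 20.0 precursors with ACGT101-miR (version not stated). Each name has 1 deposited signal value in each library, which the authors' headers call normalized counts, of unstated scaling. Of 582 rows, 103 exact repeats were removed, leaving 479 names, and 0 sample columns were left unmapped. Reads that match several near-identical names may have been divided among them. Low values (under 60) were whole multiples of a step per library, within 0.01, for 78.5% to 83.5% of values, too few for a count test.

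Names that reached 10 in 3 or more libraries were tested. GLY was compared with CK on log2(value + 1) by limma 3.58.1 (trend and robust) in R 4.3.3, without a replicate block, and Benjamini-Hochberg adjusted over all 251, with calls at an adjusted p under 0.05. Adding 1 understates the change of low names. Families were fitted on summed values. No 2 libraries held the same values.

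Named were all members, the 4 most abundant miR156 names and the 3 tested miRNAs most like each tested member by Pearson correlation; osa-miR156f-3p was further named as the miR156 call. Members and lists were chosen with earlier results of these data known. No genome was used, so no coordinates are given. Alternatives were pseudocounts, filters, 4 scalings, limma options, each sequence once, the replicate block and each library left out. Leaving out a library was run first with the filter reapplied, then, as an addition made after those values were seen, with the 251 names kept. Ratios without a pseudocount were also added later.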

Additional observations from a re-analysis of the deposited data

Results flagged for a closer look

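mdm-miR535a_1ss21CT, which was outside the tested set, was listed at 17.6 in GLY 1 and 10.3 in GLY 3, above the 0 of all 3 CK libraries and of GLY 2. It differs from osa-miR535-5p by C21T. Of the reads of both names together, it held 20 of 7583 (0.264%) in GLY 1 and 6 of 3460 (0.173%) in GLY 3. Across CK 1 to CK 3 it held 0 of 713, 0 of 981 and 0 of 1816 reads. The upper Wilson 95% limits there were 0.536%, 0.390% and 0.211%. They lie above the GLY 3 share in every CK library and above the GLY 1 share in CK 1 and CK 2. The listed 0 in CK therefore does not show a lower share than in GLY.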

How the results depend on the processing

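The log2 difference of the miR535 family kept its direction but lost its call at 2.30 with a pseudocount of 0.5 (adjusted p = 0.0503), 2.30 with no filter (0.0571), 2.16 at equal totals (0.0615), 2.29 with median of ratios (0.0962), 1.85 with upper quartile scaling (0.0933), 1.57 with quantile normalization (0.144) and 2.30 without limma's trend and robust options (0.0826). osa-miR535-5p lost its call at equal totals (0.0567), with upper quartile scaling (0.0618), with no filter (0.0540) and without the limma options (0.0573). The SPL-related median over 17 names moved from 1.13 to 0.90 with a pseudocount of 5. Leaving out 1 library gave, over both versions, 1 to 125 called miRNAs and 0 to 4 members called higher. It gave 0 to 9 SPL-related names called higher and 0 to 3 lower. Each count was highest without GLY 2 and with the 251 names kept, where 39 of the 251 were called higher and 86 lower. The 4 and the 9 include osa-MIR529b-p3, which is in that set only through its GLY values. The SPL-related median (osa-MIR529b-p3 included where tested) was 0.82 to 1.51. Family differences were 2.00 to 2.81 for miR535 and 1.05 to 1.78 for miR529. miR529 was called only without GLY 2 (adjusted p = 0.00601 with the filter reapplied). osa-MIR529a-p5 ranged from -0.44 without GLY 1 to 0.76 without GLY 2. The ratio of osa-miR529b to osa-miR535-5p had an exact permutation p of 0.5 at a pseudocount of 5. The cause of these changes was not tested.

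With the replicate number as a block, 6 miRNAs were called (5 higher and 1 lower) against 28 without it, with 0 members and 0 SPL-related names called higher, and the miR535 family stood at 2.30 (adjusted p = 0.0880). The adjusted p was 0.0848 for osa-miR529b, 0.0984 for osa-MIR529b-p3 and 0.0872 for osa-miR535-5p. Deviations of same-numbered libraries correlated at -0.39, 0.09 and 0.47, and those of different numbers at -0.48 to 0.51. With 3 libraries per group these values cannot decide whether the numbers mark a pairing. The main fit took them as no pairing. If they do mark one, the calls of the members do not hold.

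Low depth limits osa-miR529b in CK (15 to 24 estimated reads) and osa-MIR529b-p3 in GLY (15 to 18).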
